A study of Mus musculus with 18 samples.

Results

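Transcripts of 10 genes of the JAK, STAT and SOCS signalling pathway were followed across type 1 innate lymphoid cells (ILC1s) and natural killer (NK) cells. The members were chosen by symbol, with earlier results of these data known: Socs1, Socs2, Socs3, Cish, Stat3, Stat4, Stat5a, Stat5b, Jak1 and Jak3. They are 10 of the 46078 genes in the deposited table, and all 10 were among the 14714 genes with enough counts to be tested.

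By its title, the study asked whether ILC1s need signalling by retinoic acid receptors to persist. Each of 18 bulk libraries came from 200 sorted cells and a SMART-seq amplification, in 6 groups of 3 libraries. All mice were C57BL/6, 8 weeks old, with no treatment named, and all carried Ncr1-Cre, the controls included. Ncr1 encodes NKp46, so Cre is made in NKp46+ cells. The second genotype also carried RARα403 at the Rosa26 locus. As background, RARα403 is a shortened, dominant-negative form of the receptor RARα that Cre switches on, so it is limited to cells with a history of Ncr1-Cre. Each genotype gave ILC1s and NK cells of the liver and ILC1s of the spleen. The cells were sorted as lacking CD3 and bearing NK1.1 and NKp46. ILC1s were CD49a+, low in CD49b and positive for the interleukin-7 receptor, and NK cells were CD49b+ without CD49a. Which libraries came from the same animal is not stated, so p-values measure only the spread between these libraries, which may be partly technical.

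Cytokine receptors that lack enzyme activity of their own borrow it from Janus kinases (JAKs). Activated JAKs phosphorylate the receptor and then STAT proteins, which enter the nucleus and switch on target genes. Among those targets are the SOCS genes and Cish, whose proteins bind receptors or JAKs and damp the same signal. In ILC1s and NK cells this pathway carries the signals of interleukin-15, interleukin-12 and interferons, with STAT5 known for survival and STAT4 for interferon-γ production.

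The short promoter stretches with STAT-type motifs are shown first because Cish, as background a classical STAT5 target, was one of the genes that differed most between the cell types. The motif TTCNNNGAA, the palindrome bound by activated STAT dimers, reads the same on both strands and was searched in RefSeq promoter windows (GRCm38.p6) of 300 bases, 250 before to 50 after each transcript start. A window was given for 9 of the 10 genes, 12 windows in all, and Socs2 had none. The motif occurred in 2 of these 12 windows, those of Cish and Socs3, and in 8.30% of all 32851 windows. Both sequences run 5′ to 3′ on the strand of the gene, with the motif matches in capitals.
Cish, chr9:107296654-107296683, plus strand: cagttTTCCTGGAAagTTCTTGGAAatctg
Socs3, chr11:117969501-117969530, minus strand: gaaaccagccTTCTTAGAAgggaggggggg
The Cish window held 2 matches, which begin at bases 1 and 12 of the RefSeq transcript. Such a window with at least 2 matches made up 0.457% of all windows. The Socs3 match begins 154 bases before the RefSeq start. A match describes the letters alone and was not tested as a binding site, and binding of STAT proteins was not measured in these libraries.

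The libraries held 3452279 to 9038767 counts. Levels are given as log2 CPM, counts relative to the library's total, after TMM scaling with a prior count of 2, and tests are edgeR's quasi-likelihood test on the counts with Benjamini-Hochberg adjustment over 14714 genes and a threshold of 0.05. Liver NK RARα403 library 1 stood apart from the rest: its correlation across genes with the other libraries of its group was 0.630 to 0.635, against 0.773 to 0.921 within groups for the other 17. It is therefore named where a level or fold change of a member rests on it. Each gene has 1 spread estimate shared by all 6 groups, so this library also enters errors, intervals and p-values of contrasts without it. The library codes open with another number for library 1 of each group than for libraries 2 and 3, and nothing in the labels says what that number means, so values from libraries 2 and 3 alone are given for the calls. Summed CPM of 7 ILC1 markers was 1469 to 3205 in ILC1 libraries and 35.5 to 276 in NK libraries. Of these 7, Itga1 (CD49a) and Il7r were gates of the sort, so this separation was partly set by it. The NK cell list likewise holds the gate gene Itga2 (CD49b), and the shared list holds Ncr1 and Klrb1c (NK1.1). The 5 markers shared by both cell types summed to 2057 CPM in liver NK RARα403 library 1 and to 7749 to 10310 in the other 17 libraries. That library's 9 NK cell markers, at 2875 CPM, were the lowest of the NK libraries, of which the others had 4525 to 6740. The part of this difference in the member values of that library was not tested. In bulk RNA, fewer cells of a type and less RNA per cell cannot be told apart.

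Per kilobase of exon, Jak1 was the most abundant of the 10 transcripts and Stat5a the least. On the scale of log2 CPM per kilobase, the medians over 18 libraries were 7.51 for Jak1 and 6.18 for Stat4. Next came Stat3 at 5.47, Jak3 at 5.26 and Socs1 at 5.01, then Stat5b at 4.50. The inhibitors Socs2 at 3.69, Cish at 3.12 and Socs3 at 2.86 lay lower, and Stat5a had 2.51. Of neighbours in this order, only Jak1 and Stat4 did not overlap over the libraries. Without liver NK RARα403 library 1, Jak1 lay at 6.63 to 8.15 log2 CPM per kilobase and Stat4 at 5.72 to 6.53. Stat3, at 5.001 to 5.90 in those 17 libraries, overlapped with Stat4. The order pools the cell types, and the place of Socs2 and Cish in it depended on them. In the 6 liver ILC1 libraries the medians were 4.75 for Socs2, 4.64 for Stat5b and 4.49 for Cish. In the 6 liver NK libraries they were 0.63, 4.43 and 1.88.

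**Figure D1:**
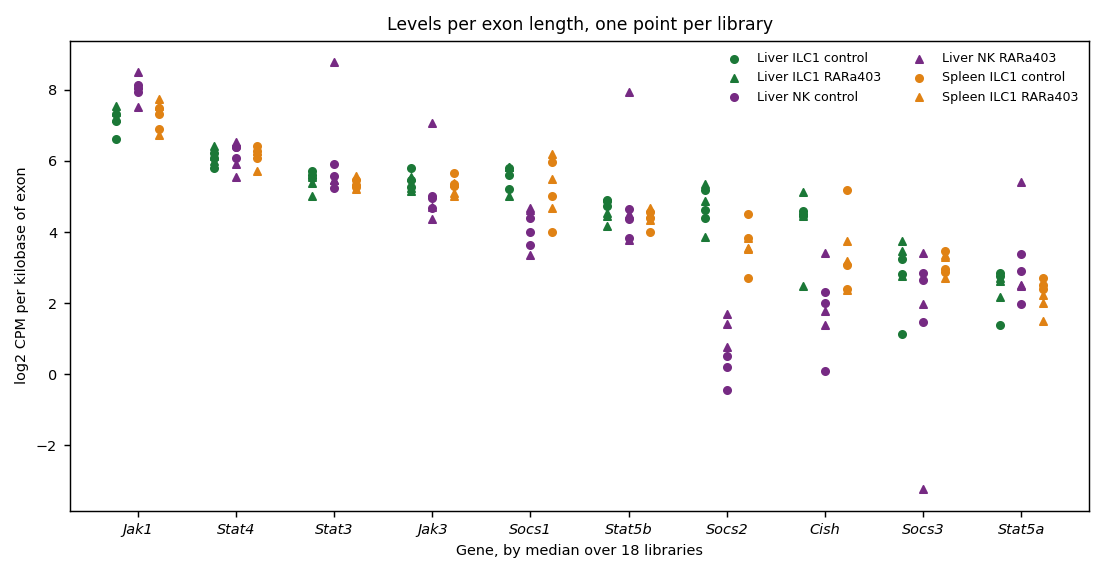
Level of each gene in log2 CPM per kilobase of exon (vertical axis), one point per library, with the genes ordered by their median over 18 libraries and coloured by cell population. Jak1 lies highest with a median of 7.51, and all NK points of Socs2 and all but 1 of Cish lie below the ILC1 points. Socs3 has 1 point far below the others, at 0 counts, and Stat3, Stat5a, Stat5b and Jak3 each have 1 high point, all in liver NK RARα403 library 1.

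The members also differed in how far they varied. Over the 17 libraries other than liver NK RARα403 library 1, the SD in log2 CPM was 1.87 for Socs2 and 1.45 for Cish. It was 0.77 for Socs1 and 0.71 for Socs3. The kinases and transcription factors were steadier, from 0.21 for Stat3 and 0.23 for Stat4 to 0.50 for Stat5a.

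**Figure D2:**
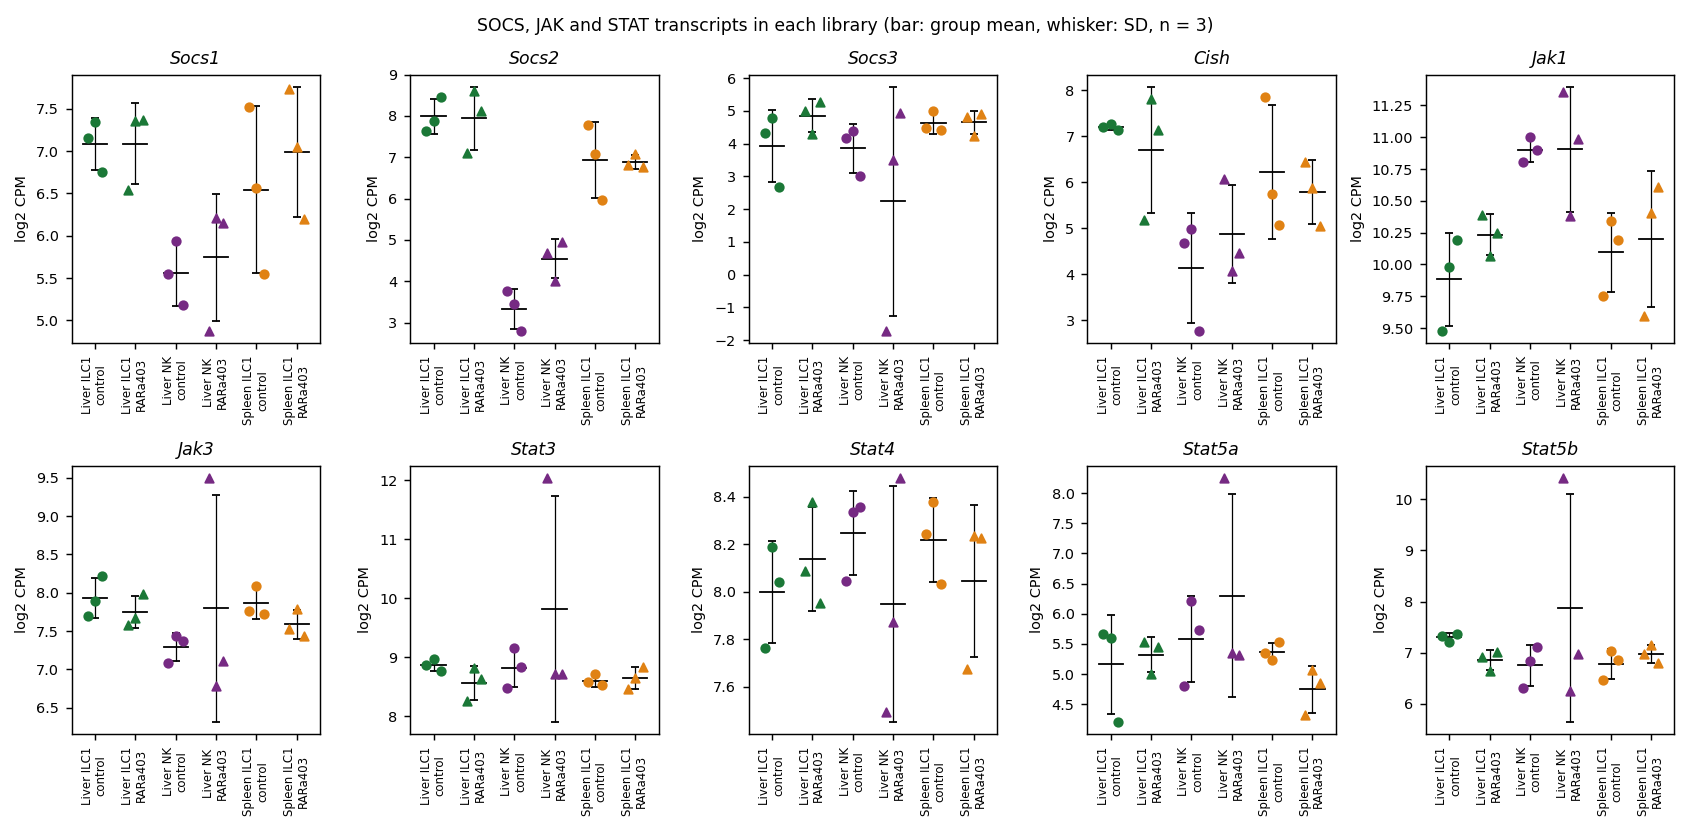
Level of each gene in log2 CPM (vertical axis, with its own range per panel) in the 3 libraries of each of the 6 groups, with the group mean as a bar and the SD as a whisker. Socs2 lies at 2.81 to 4.95 in the 6 liver NK libraries and at 5.96 or above in the 12 ILC1 libraries, while the points of the 2 genotypes mostly overlap within a population.

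Of the 10 genes, Socs2 and Cish differed most between liver ILC1s and liver NK cells. Socs2 was 16.9-fold higher in ILC1s over both genotypes, and Cish was 5.15-fold higher. Jak1, the kinase shared by the common γ chain, gp130 and interferon receptors, was 1.81-fold lower in ILC1s. These 3 of the 10 genes passed the threshold in the mean over both genotypes, a contrast in which 2.09% of all tested genes did. Because the members were chosen with earlier results known, their shares here and below are descriptions and no test of the set.

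Socs2, best known for damping growth hormone and STAT5 signals (ENSMUSG00000020027, mm10 chromosome 10, 95385362 to 95417180, protein coding), had the widest difference. Its level was 7.64, 7.88 and 8.45 log2 CPM in control liver ILC1 libraries 1 to 3 and 7.11, 8.60 and 8.12 in RARα403 liver ILC1s. In liver NK cells it was 3.76, 3.45 and 2.81 in control and 4.68, 4.02 and 4.95 in RARα403 libraries. The lowest liver ILC1 library thus lay above the highest NK library. The counts behind these levels were 821 to 2593 in liver ILC1s and 38 to 184 in NK cells. The log2 fold change was 4.68 ± 0.53 (SE) between control groups (edgeR adjusted p = 0.000646) and 3.49 ± 0.50 between RARα403 groups (adjusted p = 0.00715). Over both genotypes it was 4.08 ± 0.36 (adjusted p = 2.29e-05), and it passed the threshold in all 18 fits that each left out 1 library. In libraries 2 and 3 alone it was 4.44 (adjusted p = 0.000101). When only the 2 RARα403 groups entered the fit, their difference was 3.47 with an adjusted p of 0.634.

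Between control groups, Socs2 was the 1 member that passed, where 0.605% of all genes did. It was also the 1 member that passed between RARα403 groups, where 0.401% did. Without overlap of the 3 against 3 libraries, the control groups separated 6 of the 10 members, against 16.9% of all genes. These were Socs1, Socs2, Cish, Stat5b and Jak3, all higher in ILC1s, and Jak1, lower. The RARα403 groups separated Socs1 and Socs2, 2 of the 10, against 12.3% of all genes. Over both genotypes, 6 against 6 libraries, Socs1 and Socs2 did not overlap, against 2.67% of all genes.

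Cish, which encodes the CIS protein, an inhibitor of interleukin-15 and interleukin-2 signalling in NK cells (ENSMUSG00000032578, mm10 chromosome 9, 107296026 to 107302784, protein coding), followed in size. Its level was 7.20, 7.26 and 7.13 log2 CPM in control liver ILC1s and 5.18, 7.81 and 7.13 in RARα403 liver ILC1s. In NK cells it was 4.67, 4.98 and 2.77 in control and 6.08, 4.08 and 4.46 in RARα403 libraries. Control groups did not overlap, while RARα403 liver ILC1 library 1 fell below RARα403 NK library 1. The log2 fold change over both genotypes was 2.36 ± 0.58 (edgeR adjusted p = 0.0431). It was 2.80 ± 0.83 between control groups and 1.93 ± 0.80 between RARα403 groups, with adjusted p = 0.224 and 0.344. Without liver NK RARα403 library 1 the fold change over both genotypes was 2.81 with an adjusted p of 0.0103, but the call was lost in 13 of the 18 fits that each left out 1 library, with adjusted p up to 0.130. In libraries 2 and 3 alone it was 3.08 (adjusted p = 0.00253). Cish shares 7.46% of its exon bases with the antisense gene Gm17041, and how the counting treated strand was not given in the sources used here.

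Socs1, the inhibitor that binds JAKs directly and is known for interferon-γ feedback (ENSMUSG00000038037, mm10 chromosome 16, 10782240 to 10785536, protein coding), had a smaller difference. Its level was 7.16, 7.35 and 6.75 log2 CPM in control and 6.54, 7.36 and 7.37 in RARα403 liver ILC1s. In NK cells it was 5.55, 5.94 and 5.18 in control and 4.88, 6.21 and 6.15 in RARα403 libraries. All 6 liver ILC1 libraries lay above all 6 NK libraries, and the log2 fold change was 1.40 ± 0.36, yet the edgeR adjusted p of 0.0551 missed the threshold. DESeq2 gave 1.40 with an adjusted p of 0.00330, and limma-voom with quality weights an adjusted p of 0.00946. The edgeR test passed with RLE scaling (adjusted p = 0.0495), only the groups compared (0.0396), no filter (0.00307) and libraries 2 and 3 alone (0.0272). Of the fits that each left out 1 library, only those without control spleen ILC1 library 1 (edgeR adjusted p = 0.0412) or library 3 (0.0422) passed. It did not pass with the replicate block, the replicate block by library code or the opening number of the code as a term.

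Socs3, the inhibitor of gp130 receptors and STAT3 (ENSMUSG00000053113, mm10 chromosome 11, 117966079 to 117970047, protein coding), gave no call. Its level was 4.34, 4.78 and 2.67 log2 CPM in control and 4.998, 4.29 and 5.29 in RARα403 liver ILC1s. In NK cells it was 4.17, 4.38 and 3.01 in control and 3.51 and 4.93 in RARα403 libraries 2 and 3. Library 1 of the latter group held 0 Socs3 counts. The groups overlapped, and the difference over both genotypes was 0.66 with a 95% interval of −0.82 to 2.14 (edgeR adjusted p = 0.807).

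Of the kinases, Jak1 (ENSMUSG00000028530, mm10 chromosome 4, 101152367 to 101265282, protein coding) was lower in liver ILC1s. Its level was 9.48, 9.98 and 10.19 log2 CPM in control and 10.39, 10.07 and 10.25 in RARα403 liver ILC1s. In NK cells it was 10.80, 11.003 and 10.90 in control and 11.35, 10.38 and 10.98 in RARα403 libraries. Control groups did not overlap, and RARα403 groups met at NK library 2. The log2 fold change over both genotypes was −0.86 ± 0.21 (edgeR adjusted p = 0.0399). It was −0.99 ± 0.29 between control and −0.72 ± 0.29 between RARα403 groups, with adjusted p = 0.220 and 0.324. In libraries 2 and 3 alone it was −0.72 (adjusted p = 0.0121). The call over both genotypes held in 5 of 18 fits that left out 1 library, with adjusted p of 0.0186 to 0.126, and it was lost with the replicate number as a block (adjusted p = 0.0548).

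Jak3, the kinase that pairs with the common γ chain (ENSMUSG00000031805, mm10 chromosome 8, 71676296 to 71690575, protein coding), depended on 1 library. Its level was 7.70, 7.89 and 8.22 log2 CPM in control and 7.58, 7.67 and 7.98 in RARα403 liver ILC1s. In NK cells it was 7.08, 7.43 and 7.37 in control and 9.50, 6.78 and 7.11 in RARα403 libraries. Apart from the value of 9.50 in RARα403 library 1, all NK libraries lay below all liver ILC1 libraries. The log2 fold change over both genotypes was 0.03 ± 0.35 with all libraries (edgeR adjusted p = 1) and 0.73 without that library (adjusted p = 0.00923). Jak3 shares 7.55% of its exon bases with Insl3.

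The STAT transcripts gave no call between liver ILC1s and NK cells. Stat3, which transmits interleukin-6, interleukin-10 and interleukin-21 signals (ENSMUSG00000004040, mm10 chromosome 11, 100885098 to 100939540, protein coding), was 8.25 to 8.97 log2 CPM in the 6 liver ILC1 libraries and 8.49 to 9.15 in 5 of the NK libraries. The remaining library, RARα403 library 1, had 12.04. Stat4, the interleukin-12 signal transducer (ENSMUSG00000062939, mm10 chromosome 1, 51987148 to 52107189, protein coding), was the flattest over all 18 libraries, at 7.49 to 8.48. Its log2 fold change over both genotypes was −0.05 with a 95% interval of −0.45 to 0.35 (edgeR adjusted p = 0.992). Stat4 shares 26.68% of its exon bases with the transcript Gm28177 on the same strand.

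Stat5a (ENSMUSG00000004043, mm10 chromosome 11, 100859351 to 100885169) and Stat5b (ENSMUSG00000020919, mm10 chromosome 11, 100780731 to 100850724) are neighbouring, closely related protein-coding genes that transmit interleukin-2, interleukin-7 and interleukin-15 signals. The handling of reads that match both was not given in the sources used here, so the split between them is uncertain. Stat5b was 7.33, 7.21 and 7.36 log2 CPM in control liver ILC1s and 6.31, 6.83 and 7.11 in control NK cells. These groups did not overlap, but the log2 fold change of 0.52 ± 0.69 did not pass the edgeR test (adjusted p = 1). Stat5a was 5.67, 5.61 and 4.21 in control liver ILC1s and 4.80, 6.21 and 5.72 in control NK cells, which overlapped. The log2 fold changes over both genotypes were −1.06 for Stat3, −1.03 for Stat5a and −0.83 for Stat5b. Without liver NK RARα403 library 1 they were −0.05, −0.18 and 0.37.

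**Figure D3:**
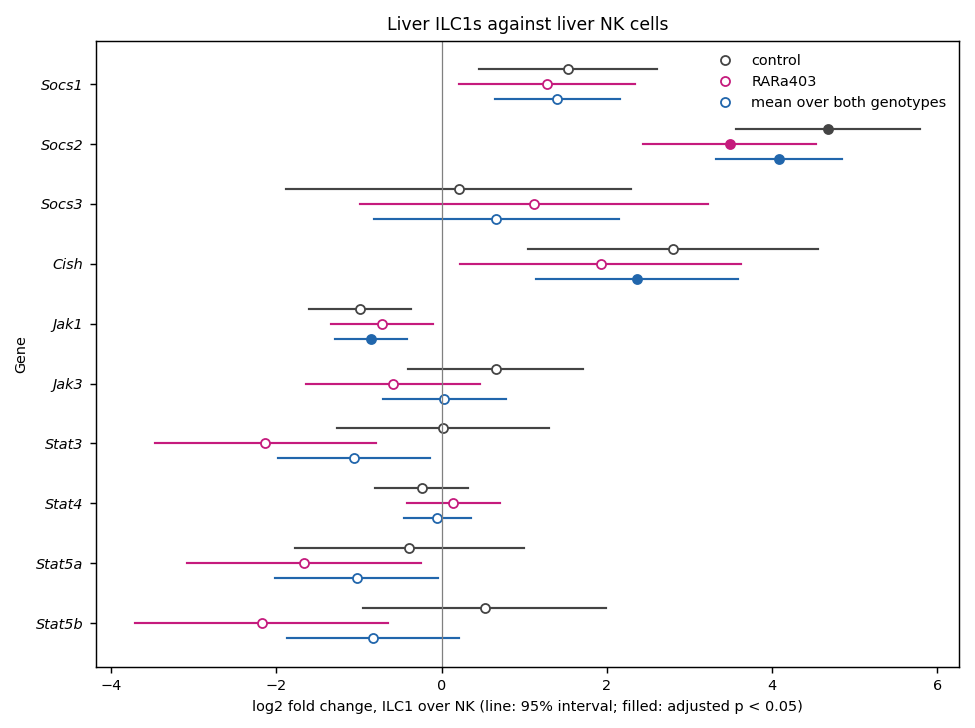
Log2 fold change of liver ILC1s over liver NK cells (horizontal axis) for each gene in control mice, in RARα403 mice and as the mean over both genotypes, with lines for the 95% interval and filled points where the edgeR adjusted p was under 0.05. The 3 Socs2 points, at 3.49 to 4.68, are filled, and of the other genes Cish at 2.36 and Jak1 at −0.86 are filled in the mean only.

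Spleen ILC1s also held more Socs2 than liver NK cells. Its level was 7.77, 7.09 and 5.96 log2 CPM in control and 6.81, 7.09 and 6.76 in RARα403 spleen ILC1s, above every NK library. Against control liver NK cells, control spleen ILC1s had a log2 fold change of 3.77 ± 0.50 (edgeR adjusted p = 0.00366). Socs2 was the 1 member of the 10 to pass there, against 0.313% of all genes. This comparison and the liver comparison share the control NK libraries, and it also crosses tissues, so cell type and tissue cannot be told apart in it.

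Cish and Socs1 covered a wide range in spleen ILC1s. Cish was 7.85, 5.74 and 5.07 log2 CPM in control and 6.44, 5.86 and 5.05 in RARα403 libraries. Socs1 was 7.52, 6.56 and 5.55 in control and 7.73, 7.05 and 6.20 in RARα403 libraries. Library 1 was the highest of its group for both genes and both genotypes, and library 3 the lowest. Control library 3 had 2677 CPM of 6 B cell markers and 472 CPM of 7 myeloid markers, against 328 to 845 and 3.895 to 57.5 in the other 5 spleen libraries. RARα403 library 3 had 1918 CPM of 5 endothelial and erythroid markers, against 72.8 to 648 in the others. RARα403 library 1 had 117 CPM of 6 hepatocyte markers, against 0 to 9.13 in the others. The 9 NK cell markers summed to 1348 CPM in RARα403 library 3, the highest of the spleen libraries, and to 311 CPM in control library 1, the lowest. The part of these markers in the Cish, Socs1 and Socs2 values was not tested. Against control NK cells the log2 fold changes were 2.34 for Cish and 1.18 for Socs1 (edgeR adjusted p = 0.497 and 0.637), and in libraries 2 and 3 alone they were 1.18 and 0.53. The other members in spleen were closer together: Jak1 ran from 9.59 to 10.61, Jak3 from 7.44 to 8.09, Stat3 from 8.47 to 8.84 and Socs3 from 4.23 to 4.99.

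Between spleen and liver ILC1s no member passed in either genotype, and neither did any other gene (0% of 14714, in control and in RARα403 cells). At an unadjusted p under 0.05, edgeR listed 468 genes in control and 419 in RARα403 cells, with Socs2 among the latter. DESeq2 called 26 and 30 genes and no member. Socs2 was lower in spleen by a log2 fold change of −0.91 ± 0.45 in control cells, with a 95% interval of −1.87 to 0.05. The value was −1.17 ± 0.45 in RARα403 cells, with an interval of −2.14 to −0.21, and the edgeR adjusted p was 1 in both.

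None of the 10 transcripts passed the threshold for RARα403 against control in any of the 3 populations. In the liver ILC1, liver NK and spleen ILC1 comparisons edgeR called 0 of the 10 and 0% of all 14714 genes, with 0, 3 and 0 members at an unadjusted p under 0.05. Over all genes that unadjusted count was 432, 1418 and 425. DESeq2 called 33, 154 and 20 genes and limma-voom 0 in each, with no member among them. Without overlap of the 3 against 3 libraries, 1 member separated in each population. The background for that was 9.53% of all genes in liver ILC1s, 8.49% in liver NK cells and 8.99% in spleen ILC1s. The members were Stat5b, lower in RARα403 liver ILC1s, Socs2, higher in RARα403 liver NK cells, and Stat5a, lower in RARα403 spleen ILC1s.

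In liver ILC1s, the intervals bound how large a change of the inhibitors could be. The Socs2 log2 fold change was 0.04 with a 95% interval of −0.91 to 0.99, and for Socs1 it was 0.03 with −1.02 to 1.08. Cish was more uncertain, at −0.14 with −1.777 to 1.501, and library 1 of the RARα403 group stood at 5.18. That library also had the lowest Socs2 level of the liver ILC1s, 7.11, and 1643 summed CPM of 9 NK cell markers, with none of the 9 at 0. The other 5 liver ILC1 libraries had 257 to 525, and Cma1, Klra4 or Klra8 stood at 0 in each of them. Control library 1 had 1856 CPM of 5 endothelial and erythroid markers and 249 CPM of 7 myeloid markers, the most of the liver ILC1 libraries for both lists. The part of those markers in the Cish and Socs2 values was not tested. Without library 1 of the RARα403 group, the contrast of liver ILC1s with NK cells over both genotypes gave 2.59 for Cish (edgeR adjusted p = 0.0227). Stat5b was 6.91, 6.64 and 7.005 log2 CPM in RARα403 liver ILC1s, each below the 3 control values, with a fold change of −0.44 ± 0.69 (adjusted p = 1).

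In liver NK cells, Socs2 was higher in each RARα403 library (4.68, 4.02 and 4.95 log2 CPM) than in each control library (3.76, 3.45 and 2.81). The log2 fold change was 1.23 ± 0.46, with an unadjusted p of 0.0174 that did not survive adjustment (edgeR adjusted p = 0.431). Without library 1 of the RARα403 group it was 1.17. The difference between this value and that in liver ILC1s, as an interaction, was −1.19 ± 0.64 (adjusted p = 0.819), so the effects were not shown to differ.

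In spleen ILC1s the Socs2 log2 fold change for RARα403 was −0.22 with a 95% interval of −1.18 to 0.73. Stat5a was 4.32, 5.07 and 4.85 log2 CPM in RARα403 and 5.35, 5.23 and 5.53 in control libraries, with a fold change of −0.60 ± 0.65 (edgeR adjusted p = 1). The mean RARα403 effect over the 3 populations passed for 0 members and 0% of genes. It ran from −0.09 for Stat4 to 0.66 for Stat5b among the members, and the Stat5b value was −0.14 without liver NK RARα403 library 1. Both interactions, liver ILC1s minus liver NK cells and spleen minus liver ILC1s, also passed for 0 members and 0% of genes, with 913 and 397 genes at an unadjusted p under 0.05 and 43 and 18 called by DESeq2.

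**Figure D4:**
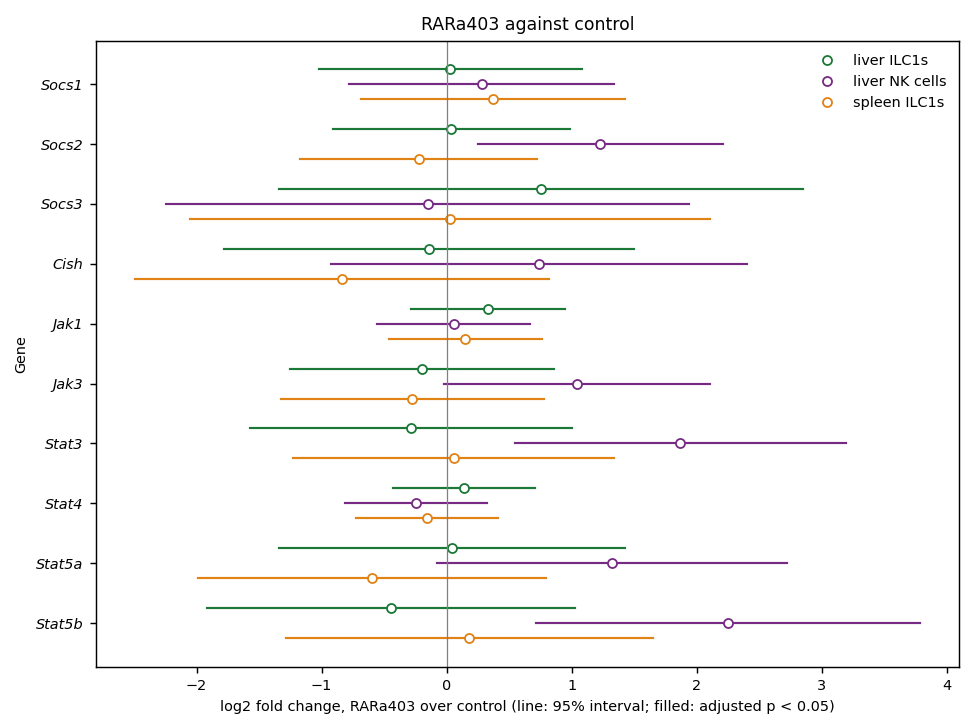
Log2 fold change of RARα403 over control (horizontal axis) for each gene in the 3 populations, with lines for the 95% interval and open points because no edgeR adjusted p was under 0.05. Most points lie near 0, and the intervals that leave 0 are those of Socs2, Stat3 and Stat5b in liver NK cells.

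The Stat3 and Stat5b values in liver NK cells came from a single library. Liver NK RARα403 library 1 had 12.04 log2 CPM of Stat3 (17297 counts), 10.42 of Stat5b (5631 counts), 8.25 of Stat5a (1251 counts) and 9.50 of Jak3 (2976 counts). The medians of the other 5 liver NK libraries were 8.72, 6.83, 5.34 and 7.11. These 4 differences, 3.31, 3.59, 2.91 and 2.38, ranked at the 97.2, 98.1, 95.7 and 93.2 percentile of the 5870 genes whose mean reached 5 log2 CPM. For the other members the library was mixed: Stat4 lay 0.84 and Socs1 1.06 below those medians, and Jak1 lay 0.46, Socs2 0.92 and Cish 1.62 above. Socs3, with 0 counts there, had a median of 4.17 in the other 5 libraries. Stat3, Stat5a and Stat5b stand side by side on chromosome 11 within 158810 bases. The 15 other genes measured within 500 kb of them differed in that library by −2.42 to 1.40, with a median of −0.84. With the library, the RARα403 effect in NK cells was 1.87 for Stat3 and 2.25 for Stat5b (edgeR adjusted p = 0.428 for both). Without it, the values were −0.15 and −0.16.

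Taken over all 12 ILC1 libraries, Socs2, Cish and Socs1 varied together. Within the liver, r was lower for each pair of them without RARα403 library 1. Over the 12 ILC1 libraries Pearson's r was 0.842 between Socs2 and Cish, 0.779 between Socs1 and Cish and 0.612 between Socs1 and Socs2. Between Cish and Socs2, r was 0.831 over the 6 liver and 0.810 over the 6 spleen ILC1 libraries, with Spearman's rho of 0.486 and 0.714. The liver value leaned on RARα403 library 1, the lowest for both genes: without it, r was 0.538 and rho 0.1 over 5 libraries, and r over the remaining 11 ILC1 libraries was 0.865. For Socs1 over the 6 liver libraries, r was 0.485 with Socs2 and 0.798 with Cish. Without RARα403 library 1 they were −0.208 and 0.420, and over the 6 spleen libraries 0.739 and 0.810. Jak1 ran the other way, with −0.622 against Cish and −0.600 against Socs1 over the 12, but only −0.201 against Socs2. Against Cish and Socs1, Jak1 had −0.746 and −0.682 in spleen ILC1s and −0.485 and −0.413 in liver ILC1s. Without RARα403 library 1, the liver values of Jak1 were 0.034 and −0.047. The 12 points mix tissues and genotypes, so the coefficients are descriptions. Stat5a and Stat5b did not vary together, with r of −0.096 over the 12.

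**Figure D5:**
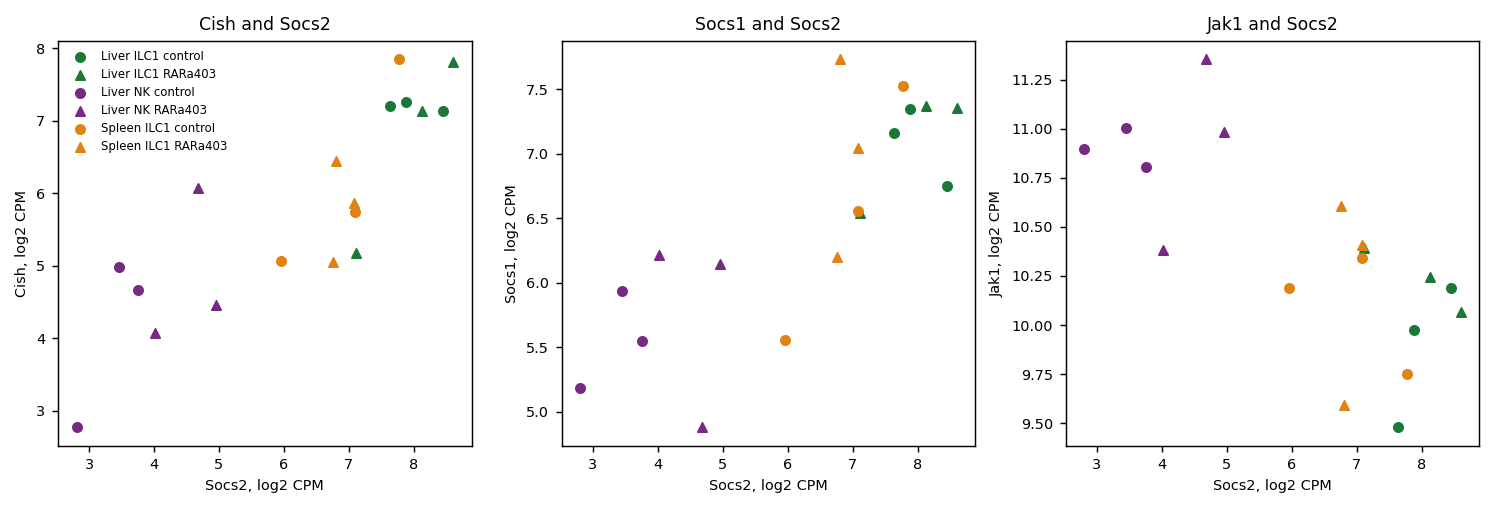
Level of Cish, Socs1 and Jak1 (vertical axes) against that of Socs2 (horizontal axis), all in log2 CPM, one point per library coloured by population. The 6 liver NK libraries form a separate cloud with Socs2 at or under 4.95, and within the 12 ILC1 libraries high Cish goes with high Socs2 (r = 0.842).

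The genes most like the called members over 18 libraries were found by Pearson's r in log2 CPM among 8189 protein-coding genes, and they carry the split between ILC1s and NK cells in all 18 points. For Socs2 they were Adgrg5 at 0.956, Zfp683 at 0.947 and Cxcr6 at 0.943, and within the 12 ILC1 libraries the values were 0.821, 0.606 and 0.718. For Cish they were Pglyrp2 at 0.899, Tasp1 at 0.897 and Itgb3 at 0.884. For Jak1 they were Tyk2 at 0.918, Tdrd7 at 0.915 and Slc9a7 at 0.891.

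The rest of the pathway was read in lists, in the contrast of liver ILC1s with liver NK cells over both genotypes. Of 25 receptor genes 21 were tested, and 5 were higher in ILC1s, 1 lower and 15 not called, with a median log2 fold change of 0.53 against 0.05 for all genes. Il10ra, the interleukin-10 receptor chain that engages JAK1, was lower by a log2 fold change of −1.38 ± 0.18 (edgeR adjusted p = 0.000536). It stood at 6.51 to 7.38 log2 CPM in liver ILC1s and 8.03 to 8.77 in NK cells. Higher in ILC1s were Il21r at 2.69 ± 0.61 (adjusted p = 0.0306) and Il4ra at 1.602 ± 0.35 (adjusted p = 0.0220), and also Il7r at 2.65, which was a marker of the sort and is no finding.

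Of the 6 other JAK and STAT genes, Tyk2 alone was called. Tyk2, the kinase of interleukin-12 and type I interferon receptors, was lower in ILC1s by a log2 fold change of −0.98 ± 0.20 (edgeR adjusted p = 0.0153). Its level was 6.74 to 7.83 log2 CPM in liver ILC1s and 8.03 to 8.79 in NK cells, the same direction as Jak1 at −0.86. Of 17 other negative regulators, Ptprc, the phosphatase CD45, was lower at −1.02 ± 0.23 (adjusted p = 0.0269), and 16 were not called. None of the other SOCS family members Socs4 to Socs7 was among the calls.

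Targets commonly tied to the STATs gave calls in both directions, in a contrast where 2.09% of all genes were called. Of 15 STAT5-associated targets 1 was higher and 1 lower: Il2ra, the high-affinity interleukin-2 receptor chain, at 3.70 ± 0.88 (edgeR adjusted p = 0.0387), and Prf1, the pore-forming perforin, at −2.24 ± 0.38 (adjusted p = 0.00367). The median of that list was −0.12. Il2ra in NK cells rested on few reads in most libraries, from 0 to 328 counts. Of 10 STAT4-associated targets 1 was lower, Il18rap at −1.02 ± 0.23 (adjusted p = 0.0266). Of 10 STAT3-associated targets none was called, and Maf at 2.22 had the smallest p there (edgeR adjusted p = 0.0720).

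Of 15 cytokine ligands of the pathway 7 were tested, and Il2 alone was called (edgeR adjusted p = 0.00445). Il2 had 79 to 201 counts in liver ILC1 libraries, 0 to 2 in control NK libraries and 0 to 37 in RARα403 NK libraries. Il2 is known as a T cell cytokine. Of 8 T cell markers 4 were called higher in liver ILC1s and none lower. Their summed level was 184 to 670 CPM in liver ILC1s and 9.57 to 36.2 CPM in NK cells, where Cd3e had 0 to 3 counts. Cd8a or Cd8b1 stood at 0 in 5 of the 6 liver ILC1 libraries. The part of those transcripts in the Il2, Il2ra, Socs2 and Cish values was not tested.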

How the data were processed

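Per the labels' protocols, 200 cells per library were sorted and their RNA amplified with a SMART-seq kit. The authors deposited whole-number read counts per gene and library. Per the submitters' processing notes, fastp 0.23.0, HISAT2 2.1.0, featureCounts of Subread 1.6.5 and the build mm10 were used. The annotation release, the strand setting and how multiply aligned reads were treated were not given in the sources used here. Symbols were matched for 45229 of 46078 genes, and the 849 without one held 0.0544% of counts.

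Genes were kept with filterByExpr (minimum count 10), scaled by TMM and fitted with edgeR 4.0.16 in R 4.3.3, with 1 mean for each of 6 groups over 18 libraries. The common biological coefficient of variation was 0.862. From this fit 12 contrasts were tested, each adjusted by the Benjamini-Hochberg method over 14714 genes. Standard errors were derived from each F statistic. Intervals cover 95% at 16.04 degrees of freedom. Exon lengths came from a GENCODE annotation of the same build, as the merged exons of all transcripts of a gene. The fit was tested on simulated data.

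All 10 members are named. Of other pathway lists, up to 4 called genes with the smallest p, or else up to 2, are named, and for each called member the 3 most like genes. Il2ra counts under its targets list. Some results that this rule covers are not reported here. The members and lists were chosen with earlier results of these data known. Alternatives were DESeq2 1.42.0, limma-voom (limma 3.58.1), RLE scaling, no filter, only the groups compared, a replicate block, a term or block from the library codes, replicates 2 and 3 only, and each library left out in turn. All limma-voom values came from a fit with quality weights for each library.

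Libraries with the same number were checked for pairing over 5655 genes. Deviations from the group means correlated at 0.102 to 0.255 for each number between control liver ILC1s and control NK cells, and at 0.130 to 0.163 between control liver and spleen ILC1s. By the rule that every pair exceeds 0.1, numbers pair those groups. The other 13 group pairs did not meet the rule, some of them narrowly. Values were 0.0606 to 0.189 between control NK cells and control spleen ILC1s, and 0.0936 to 0.179 between control liver and RARα403 spleen ILC1s. In both, all 3 libraries matched best with their own number. The same held between the RARα403 liver groups, at 0.0249 to 0.0450. What a shared number stands for was not tested.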

Additional observations from a re-analysis of the deposited data

How the results depend on the processing

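Counts of called members, out of 10, moved by more than 1.5 times under some alternatives. Control liver ILC1s against NK cells had 1 in the reported fit, 4 with only the groups compared and with limma-voom, and 2 with DESeq2, without the filter or with replicates 2 and 3 only. RARα403 liver ILC1s against NK cells had 1, but 0 with only the groups compared, 4 without the filter, and 2 with DESeq2 or replicates 2 and 3 only. Over both genotypes the count was 3, against 5 without the filter, with limma-voom or with replicates 2 and 3 only. Without the filter, spleen ILC1s against NK cells gave 2, RARα403 in liver NK cells 2 (Stat3 and Stat5b) and the interaction of liver ILC1s and NK cells 2. Over all genes, counts under these alternatives are given below for control liver ILC1s against NK cells only. The other counts of members therefore stand without that background. As given above, the Stat3 and Stat5b values in liver NK cells came from a single library, RARα403 library 1, with 17297 and 5631 counts. What moved the counts of called members between alternatives was not tested.

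With each library left out in turn, the counts ran from 1 to 2 for control liver ILC1s against NK cells, 1 to 3 for RARα403 groups and 1 to 4 over both genotypes. It stayed at 1 for spleen ILC1s against NK cells and at 0 for the comparisons of RARα403 with control and of spleen with liver. Without liver NK RARα403 library 1, Jak1 joined Socs2 between control groups, and Jak3 joined over both genotypes.

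With the replicate block, the count over both genotypes was 2 (Socs2 and Cish), and with the replicate block by library code it was 1 (Socs2). The replicate block changed no other count of members, but over all genes it moved control liver ILC1s against NK cells from 89 to 69 calls, with 29 by library code. Over all genes, that comparison had 414 calls with DESeq2, 479 with limma-voom, 343 with only the groups compared, 355 without the filter, 221 with replicates 2 and 3 only and 290 without liver NK RARα403 library 1.

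For single genes, 3108 of 3176 alternative values stayed on their side of the threshold, 35 gained and 33 lost a call, and no called value changed sign. The sign changed for 155 uncalled values. The intervals of Socs3, Cish and Stat5b span several-fold differences. All 6 groups share 1 spread estimate per gene, and liver NK RARα403 library 1 enters it. For Stat5b the SD in log2 CPM was 2.23 in that library's group, against 0.08 in control and 0.19 in RARα403 liver ILC1s. For Socs3 it was 3.50 there and 0.32 to 1.11 in the other groups. For Cish it was 1.06 there and 1.45 in control spleen ILC1s. The part of that library in the width of the intervals was not tested.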

Other observations

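Il18r1, a chain of the interleukin-18 receptor, which signals outside the JAK and STAT pathway, had the smallest p of the STAT4-associated list for RARα403 in ILC1s of both tissues. It was 8.23 to 9.16 log2 CPM in RARα403 and 6.56 to 7.51 in control liver ILC1s, a log2 fold change of 1.51 ± 0.37 (unadjusted p = 0.000960, edgeR adjusted p = 1). In spleen ILC1s it was 8.57 to 8.77 and 7.26 to 8.05, a log2 fold change of 1.03 ± 0.37 (unadjusted p = 0.0130, edgeR adjusted p = 1). Il18rap had 1.08 ± 0.32 in liver ILC1s (edgeR adjusted p = 1). Il21r had −1.94 ± 0.85 in spleen ILC1s (edgeR adjusted p = 1). None of these passed the threshold. Of the 10 genes of the list, 2 were positive in liver ILC1s and 4 in spleen ILC1s, with medians of −0.19 and −0.35.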
